A study of Homo sapiens with 6 samples.

Results

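Radixin, ezrin and moesin (RDX, EZR and MSN) form the ERM family, which ties the plasma membrane to the actin filaments beneath it. They are read here with 5 further regulators of the membrane cortex and of actin, namely NF2, CAP1, CAP2, ARHGAP18 and SH3D19. The 8 genes form a given list, and each was read from a probe set (called a probe here) that the platform annotation gives exactly 1 symbol, taking the brightest where there were several. This left 6 of the 8, out of 18417 genes measured: RDX, MSN, NF2, CAP2, ARHGAP18 and SH3D19. Members were chosen by role and by their differences between ETS2 siRNA and control arrays in these same data, those of RDX, CAP2, ARHGAP18 and SH3D19 above all, so the differences are given as a description and carry no test. The only annotated probe of EZR is shared with ROS1, and CAP1 had no probe in the annotation used here.

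H441 is a human lung adenocarcinoma cell line. Its cells were transfected, with the same lipid reagent, with a pool of siRNAs against the transcription factor gene ETS2 (3 arrays) or with a scrambled control siRNA (3 arrays), and total RNA was taken after 48 h. Each array is a separate transfection per the series' design text, and all come from 1 cell line and 1 siRNA reagent per group. Values are log2 RMA expression levels, and each difference is ETS2 siRNA minus control.

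ERM proteins are held closed until phosphatidylinositol 4,5-bisphosphate binding and phosphorylation of a C-terminal threonine open them. The N-terminal FERM domain then holds membrane proteins such as CD44 and ICAM1, and the C-terminal tail holds actin. Ezrin is the ERM protein best known from the apical microvilli of epithelia. NF2 encodes merlin, a relative with a FERM domain that acts as a tumour suppressor upstream of the Hippo kinases. CAP1 and CAP2 are cyclase-associated proteins, which bind actin monomers and work with cofilin in filament turnover. ARHGAP18 is a GTPase activating protein that switches off RhoA, and SH3D19 is an adaptor with several SH3 domains that binds the cytoplasmic tails of ADAM proteases.

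ETS2 itself stood at 8.87, 8.70 and 8.78 after ETS2 siRNA, against 9.79, 9.91 and 9.79 in control cells, a difference of -1.05 (limma adjusted p = 0.000254). All 8 lung epithelial markers examined, EPCAM and SFTPB among them, lay above the background floor of 6.67, which was set by olfactory receptor genes. SFTPB, the gene of surfactant protein B, fell by 0.36 (limma adjusted p = 0.00770), and the other 7 epithelial markers were not called. Of 8 markers of leukocytes, fibroblasts or endothelium, PTPRC, CD3E, PECAM1 and CDH5 were below the floor, while CD68, LUM, COL1A2 and COL3A1 were above it, and 0 of the 8 changed by limma (adjusted over all genes; 0.107 was the smallest adjusted p, for CD68). Over all genes, 904 of 18417 changed at an adjusted p under 0.05 (4.91%), 420 higher (2.28%) and 484 lower (2.63%). The groups did not overlap for 4248 genes (23.1%).

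RDX was the ERM gene that stood lower. It read 10.73, 10.73 and 10.72 after ETS2 siRNA, against 11.43, 11.41 and 11.34 in control cells. The ETS2 siRNA arrays lay within 0.01 of one another, and the groups were 0.61 apart at their nearest values. The means were 10.73 ± 0.01 after ETS2 siRNA and 11.39 ± 0.05 in control cells (SD, n = 3 each), a difference of -0.67 with a standard error of 0.0399 and a 95% interval from -0.76 to -0.57. On a linear scale RDX was at 63.0% of its control level. Its difference ranked 7 among all 18417 genes, counted from the most negative. In RNA from whole cultures, a lower level per cell and a smaller share of cells that express a gene cannot be told apart.

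MSN, the second ERM gene, lay slightly on the other side. It read 12.91, 12.93 and 12.89 after ETS2 siRNA, against 12.73, 12.76 and 12.73 in control cells. The groups did not overlap, and the gap between them was 0.13. The difference was 0.17 (SE 0.0365, 95% interval 0.09 to 0.25), which is 113% of the control level. The probe shared by EZR and ROS1 read 12.36, 12.40 and 12.39 after ETS2 siRNA, against 12.39, 12.38 and 12.42 in control cells, so that its groups overlapped. Its difference was -0.01 (95% interval -0.10 to 0.07), and it cannot be assigned to either gene.

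NF2 read 10.90, 10.86 and 10.88 after ETS2 siRNA, against 10.80, 10.82 and 10.85 in control cells. Its groups were separated by 0.01, the rounding step of the deposited values. The difference was 0.06 (SE 0.0373), with a 95% interval from -0.03 to 0.14 that includes 0. Of the 6 measured genes it had the smallest difference in size.

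CAP2 was higher after ETS2 siRNA. It read 10.32, 10.34 and 10.36 there, against 9.70, 9.82 and 9.68 in control cells. The ETS2 siRNA arrays agreed within 0.04, the second control array stood above the other two, and the nearest values of the groups were 0.50 apart. The difference was 0.61 (SE 0.0472, 95% interval 0.50 to 0.72), 152% of the control level.

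SH3D19 had the largest positive difference of the 6 genes. It read 10.51, 10.63 and 10.65 after ETS2 siRNA, against 10.01, 9.97 and 9.93 in control cells. Here the first ETS2 siRNA array was the lowest of its group, and the gap between groups was again 0.50. The difference was 0.63 (SE 0.0492, 95% interval 0.51 to 0.74), 154% of the control level.

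ARHGAP18 read 9.27, 9.22 and 9.30 after ETS2 siRNA, against 8.70, 8.81 and 8.62 in control cells. The groups were 0.41 apart, with the control arrays the more scattered. The difference was 0.55 (SE 0.0546, 95% interval 0.43 to 0.68), 147% of the control level. A second probe listing TMEM244 and ARHGAP18 lay below the floor, at 4.55, 4.34 and 4.53 after ETS2 siRNA and 4.53, 4.36 and 4.44 in control cells, and was not used.

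**Figure D1:**
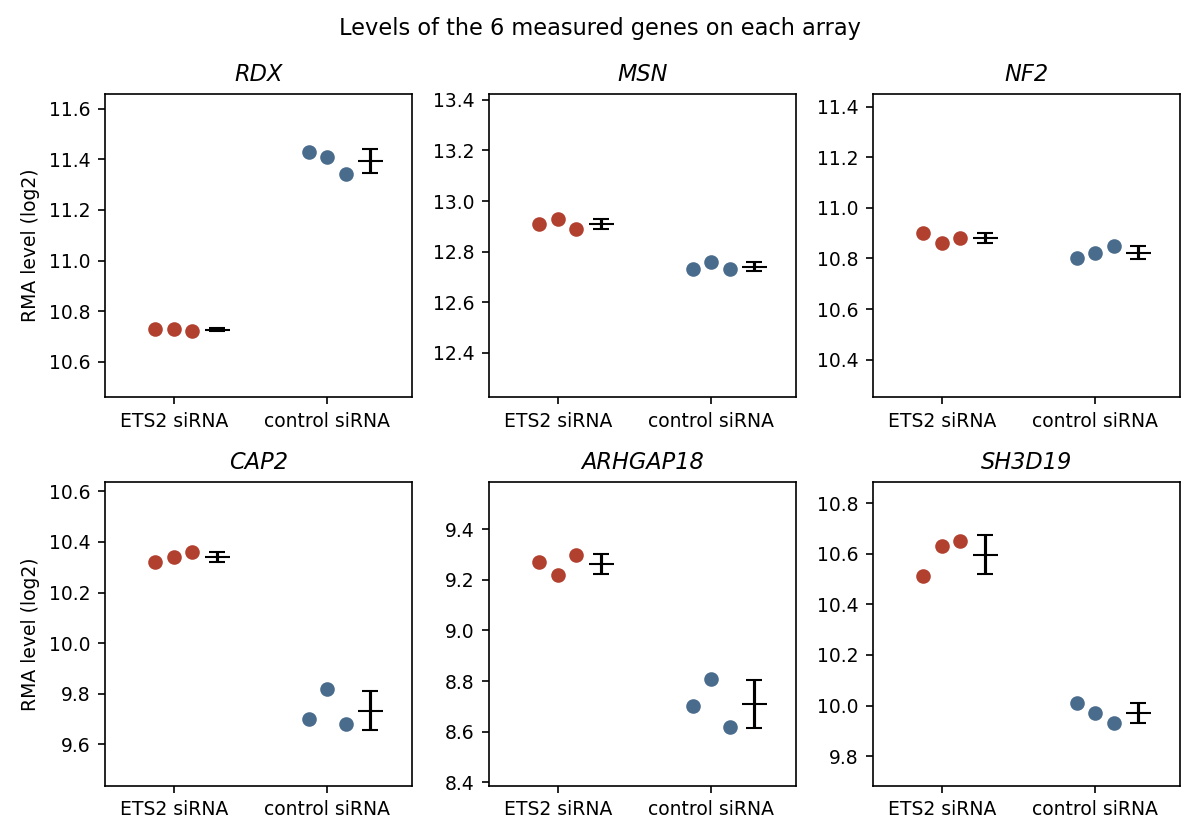
RMA level (log2, vertical axis) of RDX, MSN, NF2, CAP2, ARHGAP18 and SH3D19 on each of the 3 ETS2 siRNA arrays (left, red) and 3 control siRNA arrays (right, blue), with the mean and SD as black bars; each vertical axis covers the same span. RDX sits 0.67 lower after ETS2 siRNA, CAP2, ARHGAP18 and SH3D19 sit 0.55 to 0.63 higher, and MSN and NF2 differ by 0.17 and 0.06.

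All 6 genes lay above the background floor in both groups. Taken by the rule used for all genes (limma, adjusted p under 0.05), 4 of the 6 were past the threshold higher and 1 lower, beside 4.91% of all genes. Since the list was made with this contrast known, nothing is read from that share. MSN was past it by a narrow margin and was not past it with any 1 of the 6 arrays left out, when its difference ran from 0.16 to 0.18. Among all genes, 60 had a difference over 0.5 in size, and RDX, CAP2, SH3D19 and ARHGAP18 were among these.

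**Figure D2:**
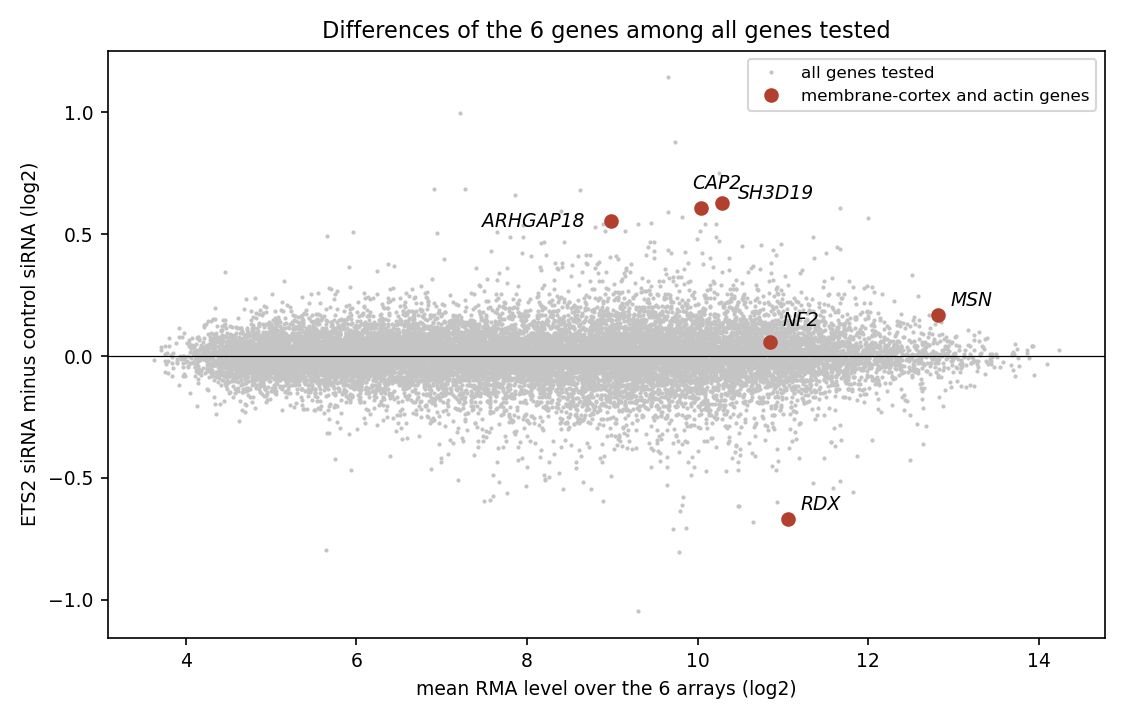
Difference of ETS2 siRNA minus control siRNA (log2, vertical axis) against the mean RMA level over the 6 arrays (log2, horizontal axis) for all 18417 genes (grey points) and the 6 measured genes (red points). CAP2, SH3D19 and ARHGAP18 stand above and RDX below the band that holds most genes, while NF2 lies inside it.

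The genes also differed in how closely replicate arrays agreed, given as a description since the list was chosen from these same data. The SD within groups was 0.0187 for MSN, 0.0227 for NF2 and 0.0337 for RDX, at percentiles 2.68, 4.98 and 15.9 of all genes counted from the least variable. It was 0.0554 for CAP2, 0.0606 for SH3D19 and 0.0733 for ARHGAP18, at percentiles 42.0, 48.3 and 61.7. By this SD, pooled over both groups, RDX, MSN and NF2 had the tighter replicates of the 6. The split did not hold within each group. In control cells the SD was 0.0473 for RDX and 0.0400 for SH3D19. After ETS2 siRNA it was 0.02 for CAP2, MSN and NF2 alike. RDX, MSN and NF2 were also the brightest of the 6, with control means from 10.82 to 12.74. Those of CAP2, SH3D19 and ARHGAP18 ran from 8.71 to 9.97. The part of the level in this split was not tested.

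Likeness of pattern was measured as the root-mean-square distance over the 6 arrays between values centred on each gene's mean. The genes nearest to RDX were THAP12 (distance 0.0298), RASSF3 (0.0463) and ACY1 (0.0495), with differences of -0.68, -0.62 and -0.71. The genes nearest to CAP2 were ST3GAL1 (distance 0.0243), ARHGAP18 (0.0392) and GEMIN5 (0.0410), with differences of 0.59, 0.55 and 0.54. With values centred over all 6 arrays, this distance largely restates the difference between the groups. CAP2 and ARHGAP18 were both listed for that difference, so nothing is read from their nearness. ST3GAL1, a sialyltransferase, read 9.93, 9.97 and 9.94 after ETS2 siRNA, against 9.29, 9.47 and 9.31 in control cells.

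ETS factors bind DNA at a GGAA core, so the 250 bases before the start of each gene were searched for it. The sequences are RefSeq's, on build GRCh38.p14, and all 8 listed genes had at least 1 such window, 14 windows in all. Those of the gene that stood lower and of 2 that stood higher are shown 5′ to 3′ on the gene's strand, with capitals marking GGAA or its reverse complement TTCC. The RDX window is chr11:110296615-110296864 (minus strand), the CAP2 window chr6:17393345-17393594 (plus strand) and the ARHGAP18 window chr6:129710178-129710427 (minus strand).
RDX: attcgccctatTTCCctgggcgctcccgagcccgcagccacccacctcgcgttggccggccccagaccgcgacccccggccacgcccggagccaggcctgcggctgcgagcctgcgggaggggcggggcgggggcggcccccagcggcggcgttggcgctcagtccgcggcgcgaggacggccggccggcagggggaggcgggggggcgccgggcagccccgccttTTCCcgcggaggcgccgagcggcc
CAP2: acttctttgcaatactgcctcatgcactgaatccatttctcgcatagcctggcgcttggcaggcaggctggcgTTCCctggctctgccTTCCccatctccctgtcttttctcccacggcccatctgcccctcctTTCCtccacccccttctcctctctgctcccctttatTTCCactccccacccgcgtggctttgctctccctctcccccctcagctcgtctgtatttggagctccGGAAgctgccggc
ARHGAP18: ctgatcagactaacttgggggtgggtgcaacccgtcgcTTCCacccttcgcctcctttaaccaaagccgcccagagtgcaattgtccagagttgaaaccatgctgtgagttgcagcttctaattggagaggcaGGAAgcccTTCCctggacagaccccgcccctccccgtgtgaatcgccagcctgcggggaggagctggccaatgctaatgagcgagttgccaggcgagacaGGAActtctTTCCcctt

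The core occurred 2 times in the RDX window, 5 times in that of CAP2 and 5 times in that of ARHGAP18, counting both strands. It is a short motif, found in 92.7% of 35116 promoter windows of the same length with a median of 3 per window, and in 13 of the 14 windows of the listed genes. A longer ETS motif, CCGGAAG, which contains the core, was found on either strand in 8.52% of all windows. The CAP2 window held it 1 time, from 15 to 9 bases before the start on the gene's strand, and 2 of the 3 CAP1 windows held it as well. The RDX, ARHGAP18, SH3D19, MSN, NF2 and EZR windows held no match to these letters. The TEAD motif GGAATG, which also contains the core and is bound by the partners of YAP, was in 2 of the 14 windows, both of SH3D19, and in 11.9% of all windows. RDX had the most GC-rich of the windows, at 82% GC, against 60% for CAP2 and 58% for ARHGAP18. These matches describe the sequence only, and binding was not measured.

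The wider pathways were read from 8 lists of 212 genes, of which 196 were measured. In these lists 18 genes changed (9.18%), 8 higher and 10 lower, beside 4.91% of all genes. The lists were chosen with earlier results of these data known, so nothing is read from that share. The median difference was 0.0167, against 0.0033 over all genes. Of the 196, 171 lay above the floor, beside 70.8% of all genes, so the 2 sets also differ in level. The count of changed genes fell with any 1 array left out, in the lists and over all genes. Over all genes it went from 904 to between 213 and 735. In the lists it was 6 without ETS2 siRNA replicate 2 or 3 and 9 without ETS2 siRNA replicate 1 or control replicate 3. Without control replicates 1 and 2 the lists held 11 and 17. Of the 18 genes themselves, 6 were still called without ETS2 siRNA replicate 2, 6 without replicate 3 and 9 without replicate 1. Without control replicates 1, 2 and 3, 10, 14 and 9 were still called. EPB41L4B, PTPN14, FAT4, LIMK1 and PACSIN2 were called with each array left out. A fit on fewer arrays is less able to call the same difference, so a lost call alone does not show that the difference moved. All 18 changed genes belong to the 7 lists described next, and their adjusted p-values are limma's over all genes. The share changed in each of these 7 lists ran from 5.56% to 13.8%, beside 4.91% of all genes. Nothing is read from these shares either.

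**Figure D3:**
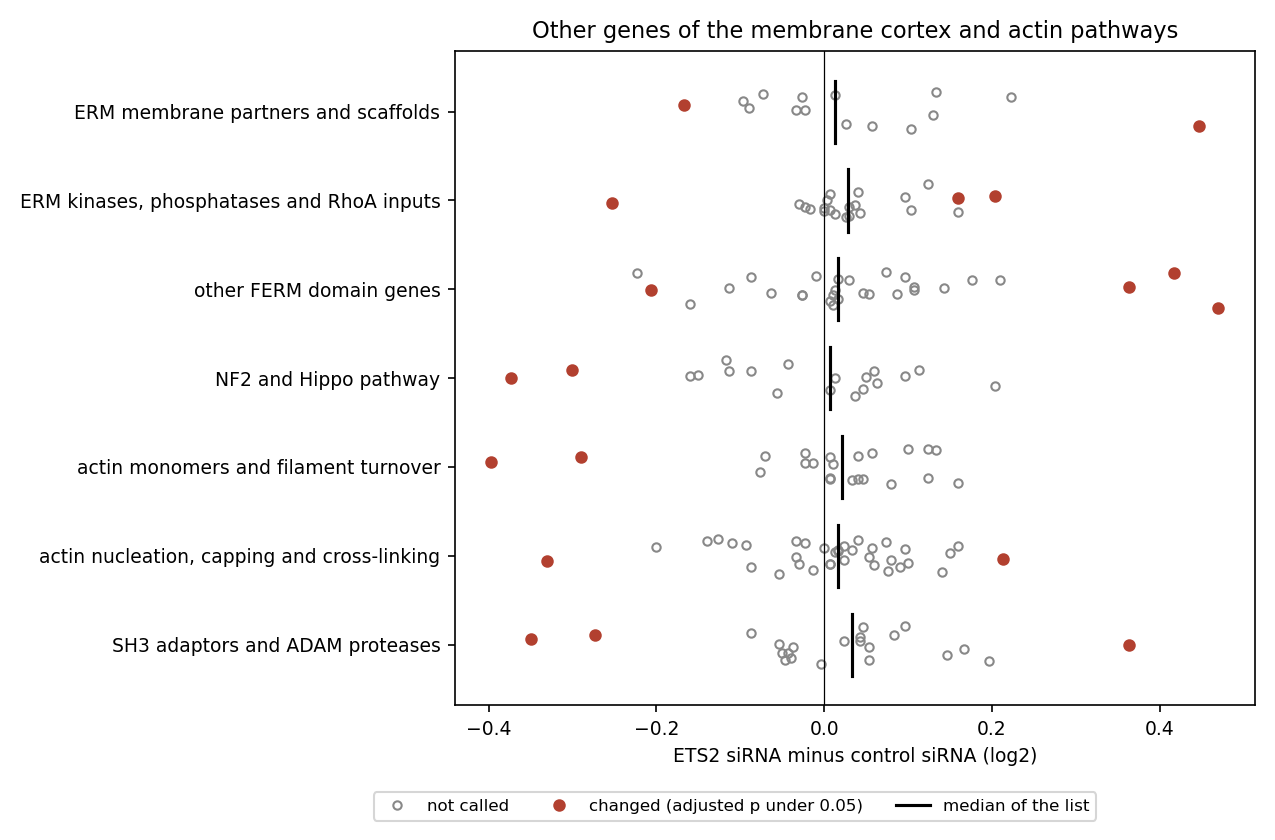
Difference of ETS2 siRNA minus control siRNA (log2, horizontal axis) for each measured gene of 7 pathway lists (rows), with changed genes as filled red points, other genes as open points and the list median as a black bar; vertical scatter within a row has no meaning. All 7 medians lie between 0.0067 and 0.0333, while the filled points run from -0.40 to 0.47.

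Among the membrane partners and scaffolds of ERM proteins, 1 of 15 measured genes rose and 1 fell. CD44, the hyaluronan receptor whose cytoplasmic tail binds ERM proteins, read 9.68, 9.65 and 9.60 after ETS2 siRNA, against 9.13, 9.40 and 9.06 in control cells. Its groups did not overlap, and the second control array was closest to the ETS2 siRNA arrays. The rise was 0.45 (SE 0.0823, adjusted p = 0.0219), and the call held in only 1 of the 6 fits with an array left out. ICAM1, an adhesion molecule that binds ERM proteins and leukocyte integrins, fell by 0.17 (SE 0.0359, adjusted p = 0.0391). That call held in 0 of the 6 fits with an array left out and was lost when arrays were scaled on ribosomal protein genes (adjusted p = 0.0593).

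Of 22 kinases, phosphatases and RhoA inputs that act on ERM proteins, 2 rose and 1 fell. SLK, a kinase that phosphorylates the C-terminal threonine of ERM proteins, rose by 0.16 (adjusted p = 0.0460), and MAP4K4, another kinase reported to do so, by 0.20 (adjusted p = 0.0275). PRKCA, protein kinase C alpha, fell by 0.25 (adjusted p = 0.0346). With an array left out, SLK and PRKCA were called in 0 of 6 fits and MAP4K4 in 1 of 6. Their differences then ran from 0.152 to 0.172 (SLK), -0.288 to -0.21 (PRKCA) and 0.188 to 0.225 (MAP4K4). Scaling on ribosomal protein genes ended the calls of SLK (adjusted p = 0.0620) and PRKCA (adjusted p = 0.0558). RHOA, the GTPase that ARHGAP18 acts on and a gene chosen after its values were seen, read 13.38, 13.39 and 13.38 after ETS2 siRNA, against 13.40, 13.41 and 13.41 in control cells. Its difference of -0.02 was not called (adjusted p = 0.807).

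The other genes with a FERM domain held the largest change of the lists, with 3 of 29 higher and 1 lower. EPB41L4B, a band 4.1 family gene, read 8.63, 8.67 and 8.72 after ETS2 siRNA, against 8.14, 8.22 and 8.25 in control cells. The groups did not overlap, and the rise was 0.47 (SE 0.0457, adjusted p = 0.00182). FRMD6, also called willin and known as an upstream regulator of the Hippo pathway, rose by 0.42 (SE 0.0689, adjusted p = 0.0149). PTPN14, a tyrosine phosphatase that binds YAP, read 10.81 on each ETS2 siRNA array, against 10.42, 10.45 and 10.47 in control cells, a rise of 0.36 (SE 0.0364, adjusted p = 0.00202). EPB41L1, another band 4.1 gene, fell by 0.21 (adjusted p = 0.0322), a call lost under ribosomal scaling (adjusted p = 0.0555). FRMD6 was called in 3 and EPB41L1 in 0 of the 6 fits with an array left out.

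In the NF2 and Hippo list, 0 of 19 genes rose and 2 fell. LATS1, the kinase that phosphorylates YAP, read 9.57, 9.53 and 9.61 after ETS2 siRNA, against 9.81, 9.87 and 9.93 in control cells. It fell by 0.30 (SE 0.0455, adjusted p = 0.0114), and its groups did not overlap. FAT4, an atypical cadherin linked with the pathway, read 7.49, 7.56 and 7.53 after ETS2 siRNA, against 7.90, 7.94 and 7.86 in control cells, a fall of 0.37 (SE 0.0410, adjusted p = 0.00315). LATS2, the paralog of LATS1 and named after its values were seen, had overlapping groups and a difference of 0.05 (adjusted p = 0.694). The call of LATS1 held in 5 of the 6 fits with an array left out.

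Genes of actin monomers and filament turnover, the process in which CAP proteins act, had 0 of 22 higher and 2 lower. LIMK1, the kinase that phosphorylates and inactivates cofilin, read 10.52, 10.40 and 10.39 after ETS2 siRNA, against 10.78, 10.91 and 10.81 in control cells. It fell by 0.40 (SE 0.0533, adjusted p = 0.00725). CFL2, the cofilin best known from muscle, fell by 0.29 (SE 0.0431, adjusted p = 0.0104). CFL1, the widely expressed cofilin and again chosen after its values were seen, read 13.51, 13.49 and 13.52 after ETS2 siRNA, against 13.51, 13.50 and 13.49 in control cells, with overlapping groups. Among 36 genes of actin nucleation, capping and cross-linking, 1 rose and 1 fell (5.56%, close to the 4.91% of all genes). FSCN1, the filament bundler fascin, rose by 0.21 (adjusted p = 0.0220), and WASF3, an activator of the Arp2/3 complex, fell by 0.33 (adjusted p = 0.0191). With an array left out, CFL2 was called in 4 of 6 fits, WASF3 in 3 and FSCN1 in 1.

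Among 22 SH3 adaptors and ADAM proteases, 1 rose and 2 fell. ADAM19, a membrane-bound metalloprotease, rose by 0.36 (SE 0.0572, adjusted p = 0.0127). PACSIN2, an adaptor that bends membranes and binds dynamin, read 10.98, 10.93 and 10.90 after ETS2 siRNA, against 11.25, 11.35 and 11.26 in control cells, a fall of 0.35 (SE 0.0446, adjusted p = 0.00628). CD2AP, an adaptor between membrane receptors and actin, fell by 0.27 (SE 0.0405, adjusted p = 0.0104). SH3D19 stood higher while PACSIN2 and CD2AP stood lower. The groups of these 3 genes did not overlap, as was so for 23.1% of all genes. All 3 were named for their differences, so nothing is read from this. ADAM19 was called in 2 and CD2AP in 4 of the 6 fits with an array left out.

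**Figure D4:**
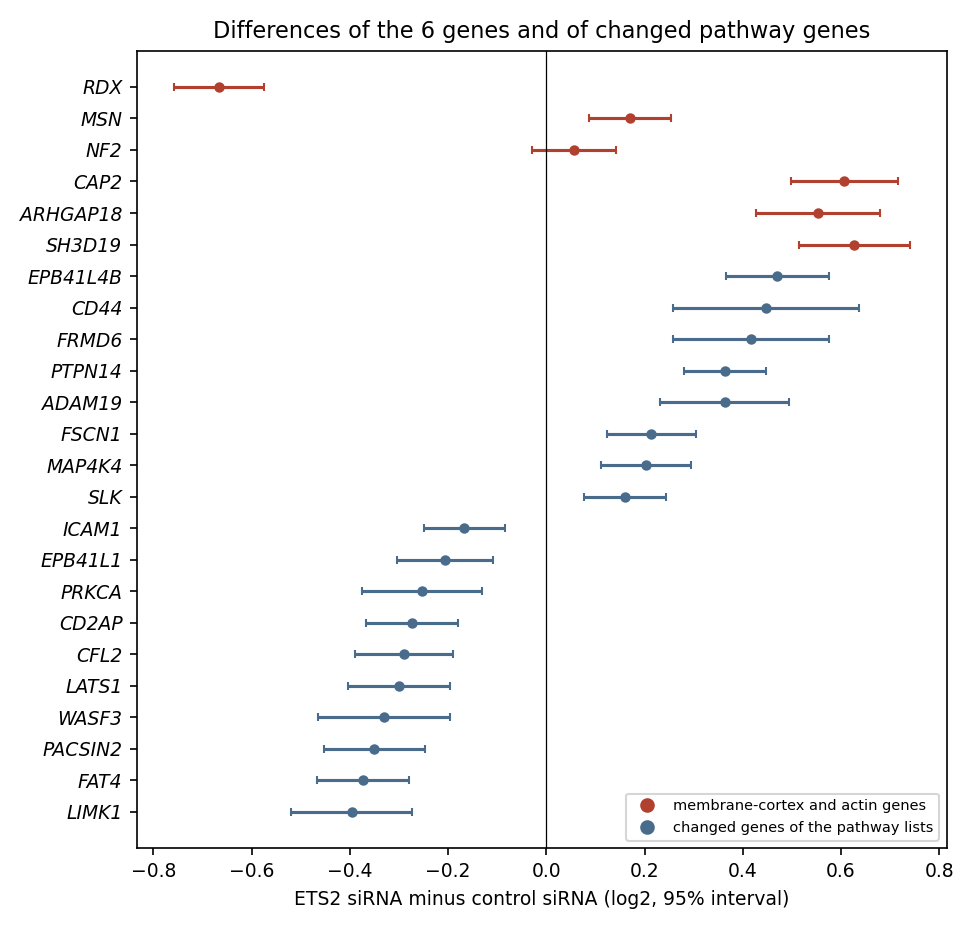
Difference of ETS2 siRNA minus control siRNA (log2, horizontal axis) with its 95% interval from limma for the 6 measured genes (red, top) and the 18 changed genes of the pathway lists (blue, ordered by difference). The 6 genes, chosen with these differences known, run from -0.67 to 0.63 and the 18 changed pathway genes from -0.40 to 0.47.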

How the data were processed

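The arrays measured total RNA of H441 cells by hybridisation of biotin-labelled cRNA. The deposited table holds a log2 expression value per probe and array, given to 2 decimals, which the authors made with RMA per the submitters' processing notes. Because RMA equalises the distributions of the arrays, a change common to every gene cannot be seen. Apart from that step, differences of dim genes come out too small. The RMA settings and the build are not given in the sources. The values ran from 3.21 to 14.51, and the number of arrays limits the precision.

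Of 33297 probes, 19460 had 1 symbol (19429 matched by gene identifier to RefSeq names), 1754 had several and 12083 were unnamed here. The brightest probe per gene was kept. Differences were fitted over all 6 arrays with lmFit and eBayes of limma 3.58.1 in R 4.3.3, two-sided, with Benjamini-Hochberg adjustment over 18417 genes and no filter. With 3 arrays a group the smallest exact permutation p is 0.1, and no permutation test was run on single genes. The fit was checked on simulated data. The floor is the 95th percentile of the means of 341 olfactory receptor genes.

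The members and lists were chosen with earlier results of these data known. Named genes are the members, ETS2, up to 5 changed genes per list with the largest difference (or the 2 with the smallest p), and the 3 genes nearest to RDX and to CAP2, apart from those said to be chosen afterwards. Other settings tried were a block on replicate number, 3 rescalings of the arrays, the mean over a gene's probes, a floor filter, an intensity trend, robust variances and each array left out. Probes with several symbols gave no gene values. Of the 8 pathway lists, 1 entered the counts but is not reported here.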

Additional observations from a re-analysis of the deposited data

How the results depend on the processing

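The differences of the 6 measured genes kept their sign under the 8 other settings and with each array left out, and moved by less than the SD between replicates. Across the 8 settings RDX ran from -0.68 to -0.66, CAP2 from 0.61 to 0.62, SH3D19 from 0.62 to 0.64, ARHGAP18 from 0.55 to 0.56, MSN from 0.16 to 0.18 and NF2 from 0.05 to 0.07. MSN was not past the threshold with the replicate number as a block, when arrays were scaled on ribosomal protein genes or with any 1 array left out. ETS2 stayed called in all of these fits. With only genes above the floor tested, 1397 genes changed over all genes and 28 in the lists. With an intensity trend 1963 and 41 changed. The cause of the higher counts was not tested. With 1 array left out the counts ran from 213 to 735 over all genes and from 6 to 17 in the lists. With the replicate number as a block, 604 genes changed over all genes and 13 in the lists, and ICAM1, PRKCA, SLK, MAP4K4 and FSCN1 were no longer called. The labels give a shared number but no shared batch, so the numbers were not taken to pair the arrays. The correlations of same-numbered arrays' deviations were 0.177, 0.181 and 0.035 for numbers 1, 2 and 3. Those of differently numbered arrays ran from -0.198 to 0.066, so the values for numbers 1 and 2 were the highest. Whether same-numbered arrays were handled together was not tested. The third ETS2 siRNA array correlated better with the second control array (0.041) than with its own number.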

Other observations

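Control replicate 2 held the highest control value for 11 of the 18 changed pathway genes (61.1%), beside 45.6% of the 13043 genes above the floor and 38.9% of all 18417 genes. These 11 genes lay on both sides of the contrast. For CD44, FRMD6, ADAM19 and MAP4K4, which rose, that array was the control nearest to the ETS2 siRNA arrays. For PRKCA, EPB41L1, FAT4, LIMK1, CFL2, WASF3 and PACSIN2, which fell, it was the control farthest from them. Among the measured members it held the highest control value for 3 of 6, MSN, CAP2 and ARHGAP18. The pattern was looked for after the values were seen, and its part in the differences was not tested beyond leaving that array out, when 14 of the 18 genes were still called.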
